A study of Mus musculus with 74 samples.

Results

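The genes described here are a group of 8 mouse genes used at the double-positive stage of T cell development: Rag1, Rag2, Dntt, Lef1, Bcl6, Arpp21, Aqp11 and Cd24a. They were chosen by name. Every probe of the array whose platform symbol is one of these names was taken, which gave 9 probes (Arpp21 has a pair, called probe 1 and probe 2 here) for 8 of the 13409 genes named on an array of 16463 probes. The 74 arrays have 2 colours, and each compared RNA of a tested sample with RNA of a control on the same slide, so that every value is a log2 ratio and none is a level. A ratio does not show whether a gene was expressed above background in either sample.

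The samples fall into 11 groups. Of the thymus groups, mhc -/- total thymocytes (6 arrays) and total thymocytes of DO11.10 mice, which carry a transgenic T cell receptor, given antigenic peptide 3 h, 6 h or 12 h earlier (6 arrays a time) were set against total thymocytes of uninjected DO11.10 mice. The transgene gives DO11.10 thymocytes a receptor that recognises the injected peptide. The labels do not say which MHC genes the mhc -/- mice lack, nor strain, age or sex. The array titles do not say whether the mhc -/- mice carry the DO11.10 transgene. The other groups are DO11.10 T cell hybridoma cells, an immortal fusion line with the same receptor, set against the untreated line: cells transduced with HDAC7 DP and treated for 2.5 h with PMA and ionomycin (8 arrays), cells with HDAC7-VP16 (10), MEF2D-VP16 (4) or Nur77 (4), and empty MSCV virus with the same PMA and ionomycin (8) or without it in sets of 12 and 4 arrays, called MSCV_A and MSCV_B. HDAC7 is a histone deacetylase that MEF2 factors bring to DNA, VP16 is a viral activation domain, and Nur77 is the orphan receptor that Nr4a1 encodes; the labels do not explain DP in the construct's name. The labels do not say that the arrays of a group hold RNA of separate cultures or animals, so the p-values rest on array-to-array spread that may be technical.

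Thymocytes that carry both CD4 and CD8 rearrange the T cell receptor alpha locus, test the receptor against self peptide on MHC, and then either mature or die. Rag1 and Rag2 together form the recombinase that cuts the receptor genes, and Dntt encodes terminal transferase, which adds untemplated bases at the joints. Both recombinase genes are shut off when the receptor signals, which ends rearrangement. Lef1 and Bcl6 are transcription factors of this stage, an HMG-box factor of the TCF/LEF family that binds beta-catenin and a zinc finger repressor. Arpp21 encodes an RNA-binding phosphoprotein of thymocytes and neurons, Aqp11 an intracellular aquaporin, and Cd24a the heat-stable antigen, a surface glycoprotein that is lost as thymocytes mature.

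RefSeq promoter windows of 300 bases (around a start site, GRCm38.p6) were found for 7 of the 8 genes, and 4 of these windows are shown: those of the adjacent recombinase genes and those of the transcription factor genes that rose together in stimulated hybridoma cells. Rag1 (chr2:101649483-101649782, minus strand) and Rag2 (chr2:101624462-101624761, plus strand) lie next to each other on chromosome 2 and are read towards each other. Of the 2 windows listed for Bcl6 the second is shown (chr16:23981234-23981533, minus strand). Of the 4 listed for Lef1 the third is shown (chr3:131112541-131112840, plus strand). These are the windows of each gene with the most matches to GGAAAA. Capitals mark matches on either strand to CAGGTG and CAGCTG, 2 forms of the E-box, and to GGAAAA, the core bound by NFAT (TTTTCC on the other strand).
Rag1: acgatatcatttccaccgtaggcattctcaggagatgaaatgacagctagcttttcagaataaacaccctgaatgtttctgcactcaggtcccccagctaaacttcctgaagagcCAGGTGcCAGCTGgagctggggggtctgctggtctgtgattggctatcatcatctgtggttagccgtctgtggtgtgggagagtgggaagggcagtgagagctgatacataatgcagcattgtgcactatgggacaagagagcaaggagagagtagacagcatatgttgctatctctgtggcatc
Rag2: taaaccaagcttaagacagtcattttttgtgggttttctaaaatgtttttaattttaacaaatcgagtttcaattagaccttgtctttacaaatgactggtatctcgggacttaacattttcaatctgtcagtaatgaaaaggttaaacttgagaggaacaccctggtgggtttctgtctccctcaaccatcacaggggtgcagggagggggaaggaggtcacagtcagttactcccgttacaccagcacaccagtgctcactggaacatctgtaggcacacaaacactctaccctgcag
Bcl6: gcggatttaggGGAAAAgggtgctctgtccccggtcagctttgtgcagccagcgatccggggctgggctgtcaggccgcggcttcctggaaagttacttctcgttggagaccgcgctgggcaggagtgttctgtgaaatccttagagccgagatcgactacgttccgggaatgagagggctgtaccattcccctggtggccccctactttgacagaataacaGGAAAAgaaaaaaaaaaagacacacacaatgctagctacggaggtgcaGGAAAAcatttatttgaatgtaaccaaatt
Lef1: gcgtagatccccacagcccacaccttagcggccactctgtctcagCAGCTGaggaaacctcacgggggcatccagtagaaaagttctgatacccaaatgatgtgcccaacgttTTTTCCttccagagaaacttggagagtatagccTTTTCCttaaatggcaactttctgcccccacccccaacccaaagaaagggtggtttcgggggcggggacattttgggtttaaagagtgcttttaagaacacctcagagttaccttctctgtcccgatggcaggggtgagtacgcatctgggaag
The Rag1 window holds CAGGTG at base -135 and CAGCTG at -128 from the start site. The Bcl6 window holds GGAAAA at -239, -28 and 21. The Lef1 window holds the NFAT core on the other strand at -137 and -104, and CAGCTG at -205. The Rag2 window, like the first windows of Dntt, Lef1, Bcl6 and Aqp11, holds none of the 8 motifs searched on both strands, which also include TGACTCA (AP-1), GTGGGCG (EGR), AAGGTCA (the Nur77 site), TAAAAAT (MEF2) and TATAAA. Among 32851 promoter windows of the same length, GGAAAA occurred in 23.357%, CAGGTG in 20.212% and CAGCTG in 16.301%, so that these matches are common and are given as a description of the letters only. These shares are per window, and a gene with several windows is more likely to hold a match in any of them.

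The direction of the deposited ratios was read from the data, because the files do not state it. Nr4a1 was positive on 4 of 4 Nur77 arrays (mean log2 ratio 4.50), on 8 of 8 arrays of stimulated empty-virus cells (4.30) and on 6 of 6 arrays at 3 h after peptide (3.07), so these values were taken as tested over control. On the mhc -/- arrays the deposited values most likely run the other way: Cd5 (3.77), Cd69 (2.13), Ccr7 (2.12), Itgb7 (2.15), Klf2 (1.74) and Bcl2 (0.67), which mature thymocytes express and MHC-deficient mice should lack, were positive on 6 of 6 arrays, while S1pr1, another such gene, was negative on all of them (-0.89). B2m, the gene of the MHC class I light chain, was looked at after its values had been seen and was also positive on 6 of 6 (3.26). All values of that group were therefore turned to mhc -/- over DO11.10, and their direction is likely rather than stated. MSCV_A replicates 3 and 9 correlated negatively with every other array of the same dye orientation (r from -0.578 to -0.317 and from -0.521 to -0.188), so their direction is not settled. HDAC7-VP16 replicate 1 carries that name in its title and the empty virus in its source name.

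**Figure D1:**
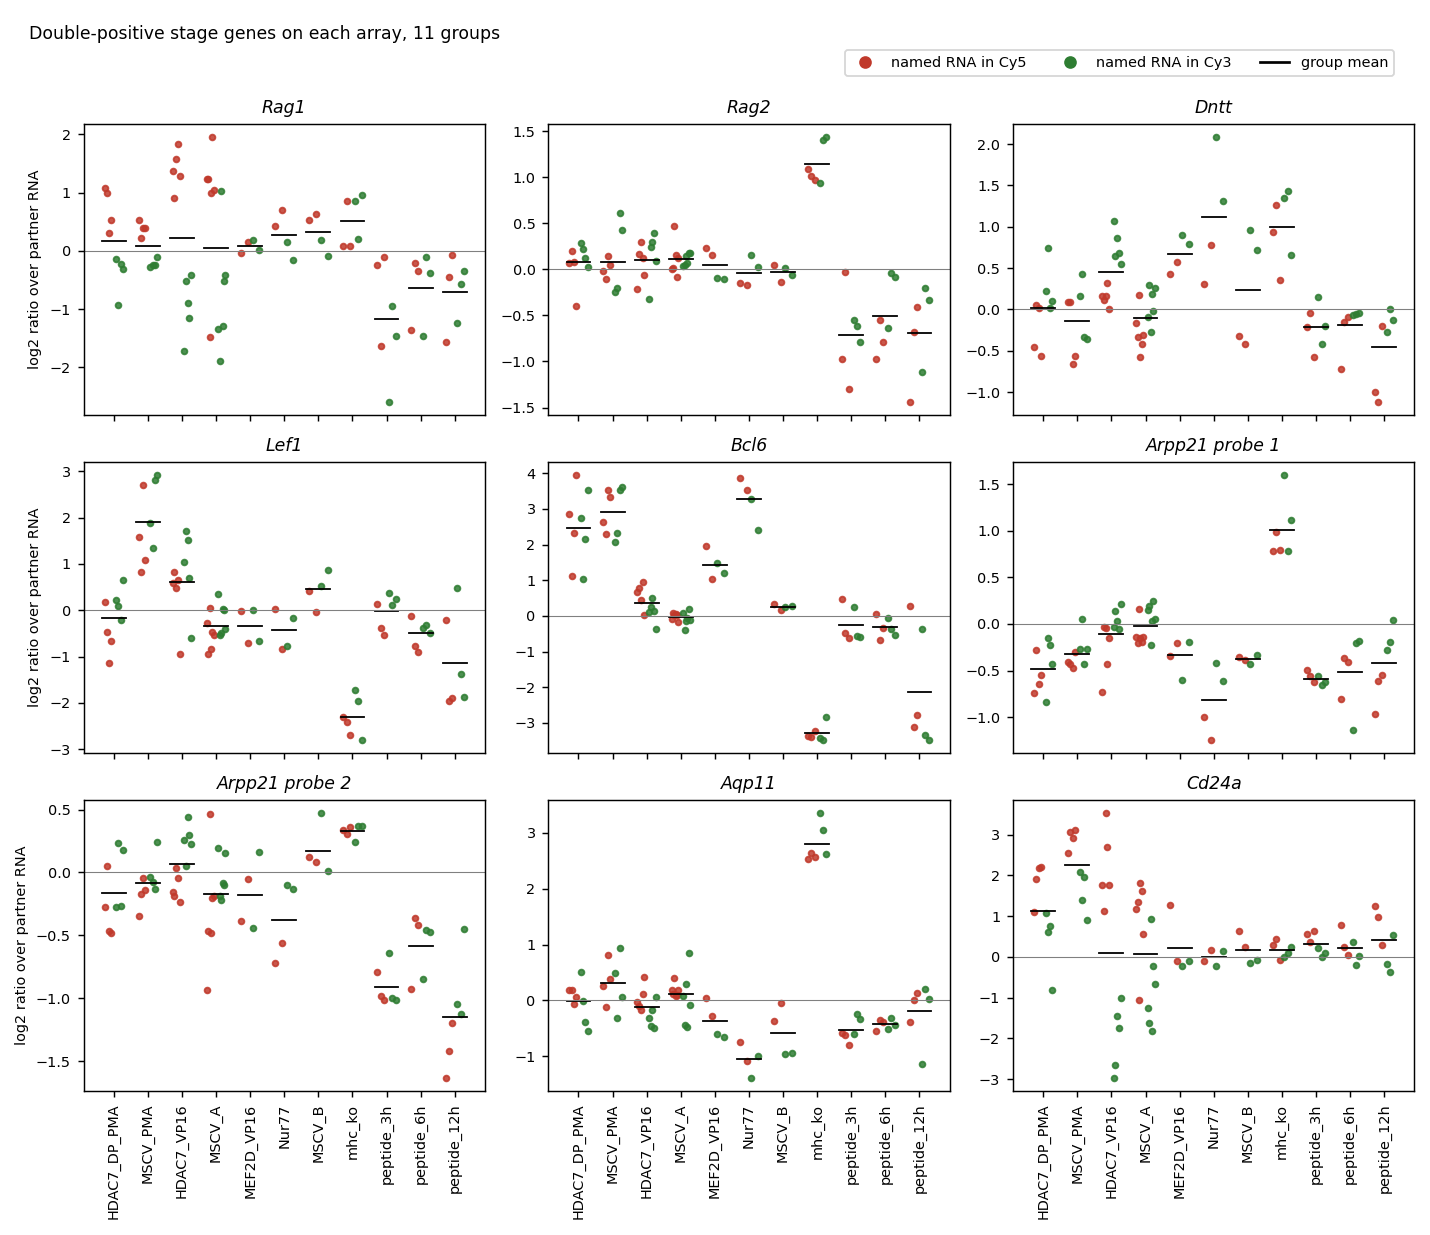
Log2 ratio of tested over control RNA (vertical axes) for the 9 probes of the 8 genes on all 74 arrays, by sample group, with points coloured by the dye of the tested RNA and a line at each group mean. Bcl6 spans the widest range of group means, 3.27 with Nur77 against -3.28 in mhc -/- thymocytes, whose direction is likely and not stated; with that group as deposited the range of Bcl6 is 5.41.

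In mhc -/- thymocytes 8 of the 9 probes were called, more than in any other comparison. Of the 9 probes, 6 were higher in mhc -/- than in DO11.10 thymocytes, 2 were lower and 1 was not called, beside 36.3% of all probes called in this comparison (15.8% higher and 20.5% lower). Aqp11 and both recombinase genes were among the higher genes, while Bcl6 and Lef1 were among the lower ones, so that these 8 genes did not move as 1 group in this comparison. Called here and below means that a limma fit with a term for dye orientation gave the probe an adjusted p (Benjamini-Hochberg, over all 16463 probes) under 0.05.

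Rag2 was above 0 on every mhc -/- array, with log2 ratios over DO11.10 of 1.09, 1.01, 0.94, 1.41, 1.43 and 0.97. The mean was 1.14 (SE 0.07), a 2.21-fold higher ratio (limma adjusted p = 2.08e-05). Rag1, its partner, stood at 0.08, 0.86, 0.85, 0.20, 0.95 and 0.08 on the same arrays, also all above 0, with 3 of them close to it. Its mean was 0.50 (SE 0.14, 1.42-fold, limma adjusted p = 0.0235), and the call ended without replicate 2, 3 or 5 (0.37 at the lowest). Dntt, which acts on the ends the recombinase leaves, ranged from 0.36 to 1.43 with a median of 1.10 and was 1.00 higher on average (SE 0.14, limma adjusted p = 0.00105). The 3 genes whose products work on the receptor loci were thus all higher, by different amounts.

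Aqp11 had the largest positive value of the 9 probes. Its log2 ratios were 2.54, 2.64, 3.35, 3.05, 2.62 and 2.57, all far above 0, and the mean of 2.80 (SE 0.09) is a 6.94-fold higher ratio in mhc -/- thymocytes (limma adjusted p = 1.36e-06). Both Arpp21 probes were above 0 on 6 of 6 arrays. Probe 1 ranged from 0.78 to 1.60 (mean 1.01, SE 0.10, limma adjusted p = 0.000176), and probe 2 from 0.24 to 0.37 (mean 0.33, SE 0.04, limma adjusted p = 0.000743). The probes of 1 gene thus had the same direction and different sizes, and whether they read different transcripts was not tested.

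Bcl6 and Lef1, the transcription factors, went the other way. Bcl6 had log2 ratios of -3.37, -3.38, -3.41, -3.47, -2.83 and -3.21 in mhc -/- over DO11.10 thymocytes. The 9.70-fold lower mean (-3.28, SE 0.09, limma adjusted p = 1.10e-06) was the farthest from 0 of the 9 probes. Lef1 had -2.31, -2.42, -1.71, -1.97, -2.80 and -2.70, a 4.98-fold lower mean (-2.32, SE 0.14, limma adjusted p = 1.36e-05). No array of either gene came near 0. Cd24a, the surface antigen, stood between -0.09 and 0.44 and was not called (mean 0.16, 95% interval -0.01 to 0.34, limma adjusted p = 0.148). The calls for Rag2, Dntt, Lef1, Bcl6, both Arpp21 probes and Aqp11 held without any 1 array.

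**Figure D2:**
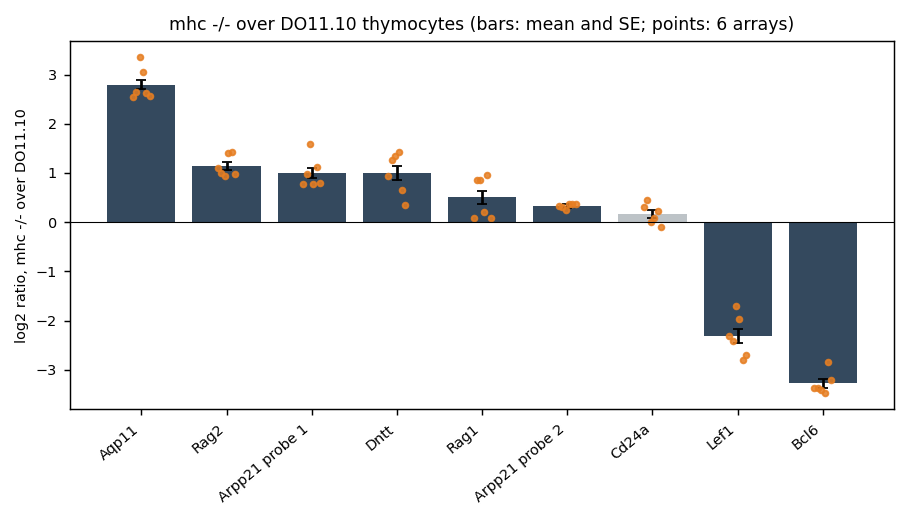
Mean log2 ratio of mhc -/- over DO11.10 thymocytes for each of the 9 probes, with bars at the mean, error bars of 1 SE and points for the 6 arrays; grey marks the probe that was not called. Aqp11 (2.80) is at 1 end and Bcl6 (-3.28) at the other.

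Among other genes of the stage more rose than fell. The counts below stand beside 36.3% of all probes called (15.8% higher and 20.5% lower). Of 15 further double-positive stage genes measured, 6 were higher in mhc -/- thymocytes, 1 was lower and 8 were not called, with a median of 0.02 beside 0.01 over all probes. Ly6d, a lymphoid surface antigen gene (3.10), Mns1, a meiosis-linked gene (1.55), and Ptcra, the gene of the pre-T cell receptor alpha chain (1.33), rose, and Plxnd1, a semaphorin receptor gene (-1.52), fell. The coreceptor genes Cd4 (0.02), Cd8a (-0.03) and Cd8b1 (0.14) were not called. Of 10 further genes of recombination and end joining, 3 rose and 4 fell (median -0.09), led by the Ku70 gene Xrcc6 (0.82) and the chromatin protein gene Hmgb1 (0.55) on 1 side and the polymerase gene Polm (-0.82) on the other. Among 13 regulators of Rag transcription 0 rose and 3 fell, Gata3 (-1.05), Id3 (-0.79) and Id2 (-0.31). Of 11 further TCF/LEF and Wnt pathway genes 2 rose and 5 fell, among them the beta-catenin destruction gene Apc (-1.40) and the Groucho corepressor genes Tle3 (-0.84) and Tle4 (-0.73). Hdac3 (-0.98) was the 1 called gene of 4 BCL6 corepressors and antagonists. Both this list and the regulators of Rag transcription had a smaller share called than all probes.

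Markers of other cell types differed in the same comparison. Of 14 markers of mature single-positive thymocytes 10 were lower in mhc -/- thymocytes and 2 higher (median -1.83), with Cd5 (-3.77), Gimap4 (-3.21) and Itgb7 (-2.15) lowest and Ly6c1 (1.30) and S1pr1 (0.89) higher. The direction of this group was read from Cd5, Itgb7 and other mature thymocyte genes. The signs in this list thus follow in part from that choice and are not a separate result. Of 8 thymic epithelial markers 5 were lower and 1 higher (median -0.73), of 6 dendritic cell markers 3 were lower and 0 higher (median -0.23), and of 6 double-negative markers 3 were lower and 1 higher (median -0.27). In B cell markers 2 of 6 were higher and 3 lower, and in macrophage markers 2 of 8 each way. In RNA of total thymocytes, fewer cells of a type and less RNA per cell cannot be told apart, and the part of these shifts in the ratios of the 8 genes was not tested.

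After antigenic peptide the same genes mostly lay below uninjected thymocytes. Both recombinase probes and Arpp21 probe 2 were below 0 on all 18 arrays of the 3 times. The share of all probes below 0 on all 18 arrays was not counted. The median of the 9 group means was -0.53 at 3 h, -0.49 at 6 h and -0.70 at 12 h, beside -0.0037, 0.0052 and 0.0123 over all probes. At 3 h, 3 of the 9 probes were called, all lower (2.71% of all probes called, 1.21% lower). At 6 h it was 4 of 9, all lower (4.57% and 2.54%), and at 12 h 1 of 9, lower (3.38% and 1.72%).

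The peptide arrays come in a pair of slide sets, which were recognised from consecutive slide numbers in the titles and from the arrays themselves after the data had been seen. Replicates 1 and 2 of each time (slides 3 to 8) form the first set and replicates 3 to 6 (slides 5 to 16) the second, and slides 5 to 8 of series 13 are named in both. At 3 h, replicates 1 and 2 were most like replicates 1 and 2 of 6 h (r = 0.712 and 0.689 over all probes) and correlated with their own group at -0.188 to 0.262, and replicates 1 and 2 of 12 h were also most like those of 6 h (0.530 and 0.431). The tests below use both sets, and values within the second set of 4 arrays a time are given where they differ. For a ratio over uninjected thymocytes, slide series as a block gives each series equal weight. Its p-values then rest on the spread within series and not on the difference between them. Whether the sets differ in animals, in handling or in hybridisation was not tested.

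Rag1 had log2 ratios of -0.24, -2.59, -1.63, -0.11, -0.95 and -1.46 at 3 h. Its mean of -1.17 (SE 0.26) was not called (limma adjusted p = 0.0690), nor were its means of -0.64 at 6 h (SE 0.20, limma adjusted p = 0.135) and -0.71 at 12 h (SE 0.21, limma adjusted p = 0.111). In the first slide set Rag1 averaged -1.42 at 3 h, -1.41 at 6 h and -1.40 at 12 h, while the second set averaged -1.04, -0.26 and -0.36. With slide series as a block Rag1 was called at 6 h (-0.83, limma adjusted p = 0.000608) and at 12 h (-0.88, limma adjusted p = 0.00162), and all arrays pointed down at each time. In the second set alone it was called at 12 h (-0.36, limma adjusted p = 0.0294) and not at 6 h.

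Rag2 had -0.97, -0.55, -0.03, -1.30, -0.61 and -0.79 at 3 h, a mean of -0.71 (SE 0.15) that was not called (limma adjusted p = 0.0652). At 6 h it fell by 0.51 (SE 0.10, 1.43-fold, limma adjusted p = 0.0256), with arrays from -0.98 to -0.04. The call ended without any 1 of replicates 3 to 6. At 12 h it stood at -0.70 (SE 0.17, limma adjusted p = 0.0783), at -0.84 with slide series as a block (limma adjusted p = 0.000607) and at -0.41 in the second set alone (limma adjusted p = 0.0104). Dntt was not called at any time with all arrays, with means of -0.22, -0.19 and -0.45 at 3 h, 6 h and 12 h. With slide series as a block it was called at 12 h (-0.50, limma adjusted p = 0.0409). None of these 3 genes was called between times, with both slide sets or within the second.

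Arpp21 probe 2 was the 1 probe of 9 called lower at all 3 times. Its 6 arrays at 3 h lay between -1.02 and -0.64 (median -0.99), and it fell by 0.91 (SE 0.08, 1.87-fold, limma adjusted p = 0.00204). It fell by 0.58 at 6 h (SE 0.09, 1.50-fold, limma adjusted p = 0.0133) and by 1.14 at 12 h (SE 0.11, 2.21-fold, limma adjusted p = 0.00815). All 18 arrays lay below 0, between -1.63 and -0.36, although the call ended without replicate 5 or 6 at 6 h and without replicate 3 or 5 at 12 h. The difference of 12 h from 6 h was not called for probe 2 with both slide sets (-0.56, limma adjusted p = 0.0517). It was called within the second set (-0.62, limma adjusted p = 0.0106) and with slide series or slide set as a block (limma adjusted p = 0.0122 and 0.0257). Probe 1 fell by 0.58 at 3 h (arrays from -0.66 to -0.50, SE 0.06, limma adjusted p = 0.00383) and was not called at 6 h (-0.51, limma adjusted p = 0.0744) or 12 h (-0.42, limma adjusted p = 0.0525). With slide series as a block probe 1 was called at both of these times (-0.63, limma adjusted p = 0.00346, and -0.47, limma adjusted p = 0.00578), as it was in the second set alone (-0.29, limma adjusted p = 0.0197, and -0.32, limma adjusted p = 0.0211).

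Aqp11 was called lower at 3 h and 6 h and not at 12 h. Its log2 ratios were -0.58, -0.60, -0.61, -0.79, -0.25 and -0.33 at 3 h, and it fell by 0.53 (SE 0.07, 1.44-fold, limma adjusted p = 0.0137). The call ended without any 1 of replicates 3 to 6. At 6 h the arrays lay between -0.54 and -0.31, and it fell by 0.42 (SE 0.06, 1.34-fold, limma adjusted p = 0.00801). At 12 h it had -0.39 and -1.14 in the first slide set and 0.01, 0.13, 0.21 and 0.03 in the second, and was not called (mean -0.19, SE 0.18, limma adjusted p = 0.614). Within the second set Aqp11 was 0.59 higher at 12 h than at 3 h (limma adjusted p = 0.00115) and 0.46 higher than at 6 h (limma adjusted p = 0.00638). With both sets, neither difference was called.

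Bcl6 separated the slide sets at 12 h more than any other probe of the group. It had 0.27 and -0.38 on the 2 arrays of the first set, against -3.10, -2.78, -3.34 and -3.47 on the 4 arrays of the second. The mean over all 6 arrays (-2.13, SE 0.58) was not called (limma adjusted p = 0.0934). Within the second set it fell by 3.17 (limma adjusted p = 8.26e-06). With slide series as a block it was called (-1.61, limma adjusted p = 0.000108), a mean that weighs both sets equally. The fall in that mean comes from the second set. At the earlier times Bcl6 was closer to 0, with 0.48, 0.25, -0.48, -0.63, -0.57 and -0.58 at 3 h and 0.05, -0.07, -0.68, -0.34, -0.36 and -0.55 at 6 h, and it was not called with all arrays. In the second set alone it was called lower at 3 h (-0.56, limma adjusted p = 0.0101) and at 6 h (-0.48, limma adjusted p = 0.0110).

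Bcl6 was also the 1 probe of 9 called between 12 h and 3 h, lower at 12 h (4.87% of all probes called, 3.2% lower). Its means were -2.13 at 12 h and -0.25 at 3 h, a difference of -1.88 (SE 0.53, limma adjusted p = 0.0499). That call ended without any 1 of 16 of the 18 arrays, without a dye term (limma adjusted p = 0.0531), with quantile normalization (-1.13, limma adjusted p = 0.164) and with slide series as a block (-0.68, limma adjusted p = 0.497). All 6 arrays at 3 h are of series 13, against 2 of 6 at 12 h, so series and time are partly confounded in that block. With slide set as a block the call held (limma adjusted p = 0.00222), and within the second set the difference was -2.61. By limma 0 of the 9 probes were called between 12 h and 6 h (3.18% of all probes called), between 6 h and 3 h (0.0121%) or in an F test over the 3 times (4.09%), with 2, 1 and 3 of 9 at an unadjusted p under 0.05. Within the second set 12 h lay below 6 h for Bcl6 (-2.69, limma adjusted p = 8.76e-09).

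Lef1 was divided by slide set as well. At 12 h it had -0.22 and 0.49 in the first set, against -1.96, -1.89, -1.38 and -1.88 in the second, and the mean of -1.14 (SE 0.36) was not called (limma adjusted p = 0.126). Within the second set Lef1 fell by 1.78 (limma adjusted p = 4.20e-05). At 6 h all 6 arrays were below 0, from -0.90 to -0.12, and Lef1 fell by 0.49 (SE 0.10, 1.41-fold, limma adjusted p = 0.0357), a call that ended without any 1 of replicates 2 to 6. At 3 h it was near 0 (-0.01, limma adjusted p = 0.975). In the second set the order was 3 h (-0.14), 6 h (-0.62) and 12 h (-1.78), and each step was called within that set (6 h minus 3 h -0.47, limma adjusted p = 0.0412; 12 h minus 6 h -1.16, limma adjusted p = 6.24e-06). Cd24a lay above 0 on 6 of 6 arrays at 3 h, 5 of 6 at 6 h and 4 of 6 at 12 h and was not called (0.31, 0.21 and 0.41; limma adjusted p = 0.0645, 0.379 and 0.199). With slide series as a block it was called higher at 6 h (0.30, limma adjusted p = 0.0353). In the second set alone Cd24a was near 0 at 6 h and not called (0.03, limma adjusted p = 0.811).

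**Figure D3:**
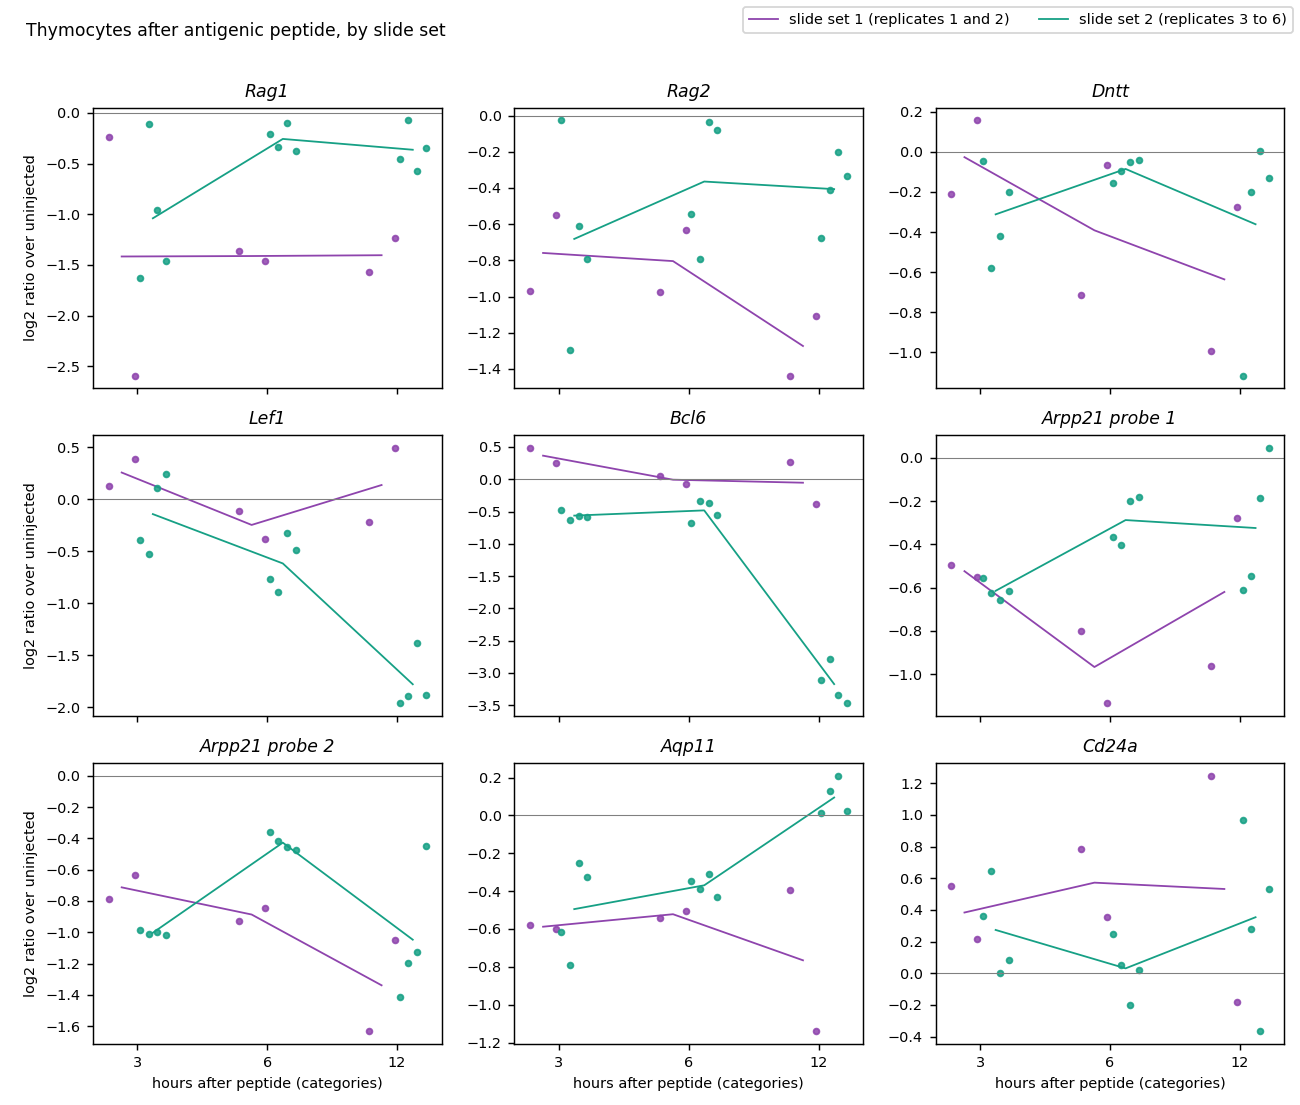
Log2 ratio of peptide-injected over uninjected DO11.10 thymocytes at 3 h, 6 h and 12 h for each of the 9 probes, with the first slide set (replicates 1 and 2) in purple, the second (replicates 3 to 6) in green and lines through the set means. Bcl6 at 12 h averages -0.05 in the first set and -3.17 in the second.

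Beside the members, other double-positive stage genes fell in small numbers: 2 of 15 at 3 h (Plxnd1 -0.72 and the ETS factor gene Ets2 -0.61; median -0.20), 3 at 6 h (the T cell receptor adaptor gene Trat1 -0.45, Tcf12 -0.39 and Endou -0.37; median -0.26) and 2 at 12 h (Plxnd1 -1.84 and Ly6d -0.66; median -0.22), and 0 rose. By limma 0 of the 10 further recombination and end joining genes were called at any of the 3 times, with 2, 2 and 3 at an unadjusted p under 0.05 and medians of 0.03, -0.10 and -0.16. Among 13 regulators of Rag transcription 1 rose and 0 fell at 3 h (Gata3, 0.56), and 1 rose and 0 fell at 12 h (Id3, the gene of an inhibitor of E proteins, 0.57). At 6 h 1 rose, Id3 (0.58), and 3 fell, Klf13 (-0.53), the E-protein gene Tcf12 (-0.39) and Foxp1 (-0.30). In the TCF/LEF list 1 of 11 fell at 3 h, 1 at 6 h and 0 at 12 h.

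Some markers of other cells fell after peptide too. Of 8 thymic epithelial markers 4 were lower at 3 h, 5 at 6 h and 2 at 12 h (medians -0.69, -0.46 and 0.16), with the chemokine gene Ccl25 at -1.55, -1.41 and -1.34 and the cortical proteasome gene Psmb11 at -1.16, -1.73 and -1.97. Of 8 macrophage markers 2, 4 and 1 were lower (medians -0.33, -0.31 and -0.10). Of all probes 1.21%, 2.54% and 1.72% were called lower at these times. Other lists moved less or both ways. Of 6 B cell markers 0, 1 and 0 were called lower and 0 higher. Of 6 dendritic cell markers 0, 1 and 0 were called lower and 0, 1 and 0 higher. Of 6 double-negative markers 0, 2 and 2 were called lower and 0, 1 and 1 higher. In the list of 14 mature single-positive markers 3 rose and 2 fell at 3 h, led by the activation antigens Cd69 (2.53) and Cd5 (1.53). At 6 h 4 rose and 3 fell, led by Cd69 (1.53), Cd5 (0.71) and Itgb7 (-0.67), and at 12 h 1 rose and 0 fell. The part of these changes in the ratios of the 8 genes was not tested.

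In the hybridoma neither recombinase gene was called in any comparison, and Bcl6, Lef1 and Cd24a had the largest differences. PMA and ionomycin stand in for a receptor signal by activating protein kinase C and raising calcium. In empty-virus cells 2.5 h of both called 4 of the 9 probes against MSCV_A, 3 higher and 1 lower (12.5% of all probes called, 6.07% higher and 6.43% lower).

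Bcl6 ranged from 2.08 to 3.60 on the 8 arrays of stimulated empty-virus cells (median 2.98), against -0.39 to 0.20 on the 12 MSCV_A arrays (median -0.01). The ranges did not overlap, and Bcl6 rose 7.75-fold (2.95, SE 0.19, limma adjusted p = 1.23e-09). Lef1 ranged from 0.83 to 2.92 (median 1.73) in stimulated cells and from -0.94 to 0.34 (median -0.44) in MSCV_A, again with no overlap. It rose 4.72-fold (2.24, SE 0.24, limma adjusted p = 1.55e-06). Cd24a ranged from 0.92 to 3.12 (median 2.31) in stimulated cells, against -1.82 to 1.82 (median 0.16) in MSCV_A, so that the ranges overlapped, and it rose 4.56-fold (2.19, SE 0.36, limma adjusted p = 0.000275).

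The same direction was seen in each slide series. In series 14 alone Bcl6 was 2.92 higher, Lef1 2.39 and Cd24a 2.19 (Cd24a limma adjusted p = 0.0571, not called), and in series 15 alone 2.99, 2.08 and 2.19. With the sign of MSCV_A replicates 3 and 9 turned the differences were 2.93, 2.16 and 2.16, all called. Arpp21 probe 1 fell by 0.30 (SE 0.07, 1.23-fold, limma adjusted p = 0.00930), a call that held in neither slide series alone and ended when MSCV_A and MSCV_B were pooled as the control (-0.21, limma adjusted p = 0.131), while probe 2 was 0.08 higher and not called. Rag1 (0.04), Rag2 (-0.03) and Dntt (-0.04) were not called.

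Around them, 4 of 10 recombination and end joining genes fell with PMA and ionomycin and 0 rose (median -0.55 beside -0.01 over all probes), among them Hmgb1 (-0.84), the damage kinase gene Atm (-0.77), Xrcc6 (-0.61) and the Ku80 gene Xrcc5 (-0.55). Of 13 regulators of Rag transcription the E-protein inhibitor gene Id2 (1.69) and the Ikaros gene Ikzf1 (1.36) rose, and the E-protein genes Tcf12 (-0.61) and Tcf3 (-0.45) fell. Bcor, the gene of a BCL6 corepressor, rose (1.41), and so did Tle3 (1.22). Of 15 further double-positive stage genes 1 rose and 2 fell.

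With HDAC7 DP, Lef1 was lower than in stimulated empty-virus cells, while Bcl6 was not called lower. Against stimulated empty-virus cells 2 of 9 probes were called, both lower (1.65% of all probes called, 1.12% lower). Lef1 ranged from -1.14 to 0.66 on the 8 HDAC7 DP arrays (median -0.05), against 0.83 to 2.92 on the 8 empty-virus arrays, with no overlap. It fell 4.19-fold (-2.07, SE 0.28, limma adjusted p = 0.000646), and over untreated cells it averaged -0.17 with HDAC7 DP (limma adjusted p = 0.484). Cd24a ranged from -0.82 to 2.20 (median 1.08), against 0.92 to 3.12, and fell 2.18-fold (-1.13, SE 0.25, limma adjusted p = 0.0332). These ranges overlapped, and over untreated cells Cd24a still averaged 1.12.

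Bcl6 ranged from 1.02 to 3.95 with HDAC7 DP (median 2.53), against 2.08 to 3.60 with the empty virus, and was not called (-0.45, 95% interval -1.31 to 0.41, limma adjusted p = 0.743). In series 14 it averaged 1.93 with HDAC7 DP and 2.94 with the empty virus, and in series 15 2.99 and 2.89, so the direction of its difference turned between series. The difference for Lef1 was -2.25 in series 14 alone (limma adjusted p = 0.0215) and -1.88 in series 15 alone (limma adjusted p = 0.167), and that for Cd24a -1.21 and -1.04 (limma adjusted p = 0.0440 and 0.593). The call for Cd24a also ended without a dye term (limma adjusted p = 0.330), with quantile normalization (-1.06, limma adjusted p = 0.164) and with all 11 groups in 1 fit (limma adjusted p = 0.208). When consecutive dye-swapped slides were averaged, which leaves 4 values, no probe of the array was called by limma. Of 11 TCF/LEF pathway genes, 10 recombination genes and 15 further double-positive stage genes 0 were called by limma here (0, 2 and 3 at an unadjusted p under 0.05), and of 4 BCL6 corepressors and antagonists Bcor fell (-1.53). Of 13 regulators of Rag transcription 1 rose, Id2 (0.94), and 2 fell, Ikzf1 (-1.07) and Runx1 (-0.59).

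**Figure D4:**
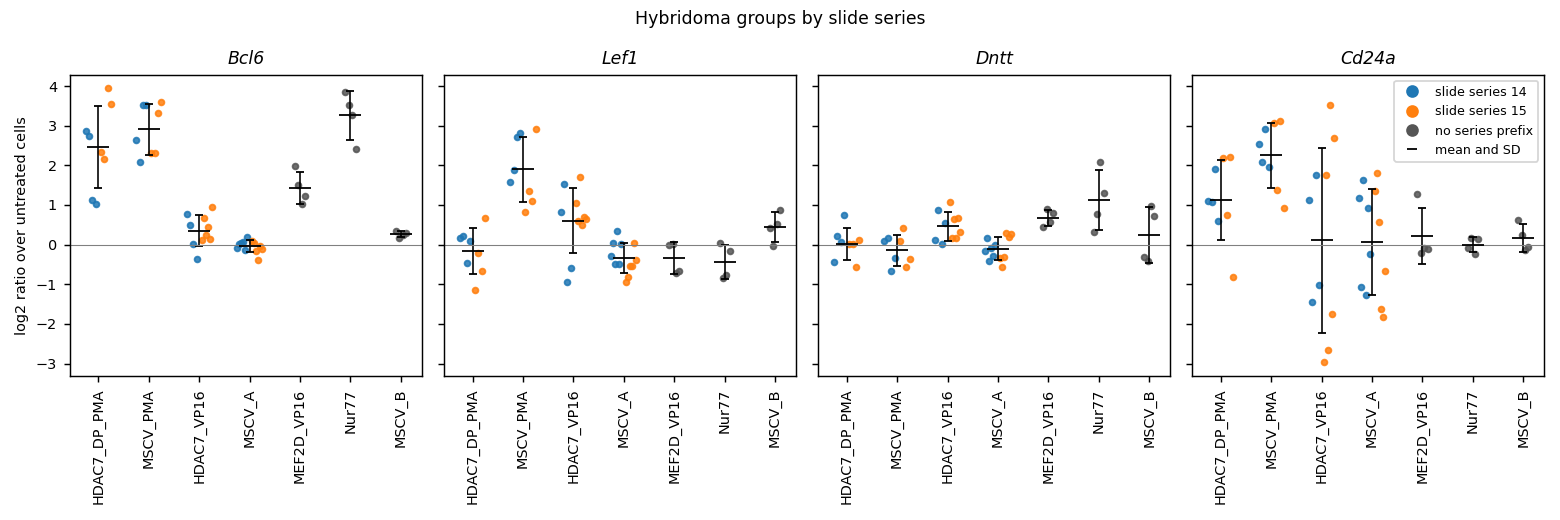
Log2 ratio over untreated hybridoma cells of Bcl6, Lef1, Dntt and Cd24a on each array, by group and slide series (14, 15 or none), with the mean and SD. Bcl6 stays between 1.02 and 3.95 in stimulated HDAC7 DP cells, while Lef1 lies between -1.14 and 0.66.

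HDAC7-VP16, in which the deacetylase is joined to an activation domain, called 2 of 9 probes over MSCV_A without any stimulus, both higher (2.72% of all probes called, 1.42% higher). Dntt ranged from 0.01 to 1.07 on the 10 HDAC7-VP16 arrays (median 0.44), against -0.57 to 0.30 on the 12 MSCV_A arrays (median -0.12). It rose 1.48-fold (0.56, SE 0.09, limma adjusted p = 0.00108), with 10 of 10 HDAC7-VP16 arrays above untreated cells and an overlap between the ranges. With the sign of MSCV_A replicates 3 and 9 turned it was still called (0.55), and the difference was 0.52 in series 14 alone, where no probe of the 9 was called, and 0.59 in series 15.

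Lef1 ranged from -0.94 to 1.70 with HDAC7-VP16 (median 0.67), against -0.94 to 0.34 in MSCV_A, and rose 1.92-fold (0.94, SE 0.24, limma adjusted p = 0.0338). This call ended with the sign of the 2 unsettled MSCV_A arrays turned (0.87, limma adjusted p = 0.0524), without the array whose source name gives the empty virus (0.91, limma adjusted p = 0.0625), without a dye term (limma adjusted p = 0.0624), with the pooled 16 arrays of both empty-virus sets as control (0.74, limma adjusted p = 0.136) and in series 14 alone (0.35). In series 15 alone Lef1 was 1.40 higher (limma adjusted p = 0.000204). Bcl6 ranged from -0.37 to 0.95 and was not called (0.39, SE 0.11, limma adjusted p = 0.0691), although it was in series 15 alone (0.53, limma adjusted p = 0.0196). Rag2 (-0.01), Arpp21 probe 1 (-0.09), Arpp21 probe 2 (0.24) and Aqp11 (-0.22) were not called.

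Nur77 gave Bcl6 its highest mean of the 7 hybridoma groups. Bcl6 had 3.85, 3.53, 3.27 and 2.41 with Nur77, against 0.34, 0.17, 0.24 and 0.28 in MSCV_B. The groups did not overlap, and Bcl6 rose 8.05-fold (3.01, SE 0.22, limma adjusted p = 1.61e-05). In all 4 of 9 probes were called over MSCV_B, 2 higher and 2 lower (6.91% of all probes called, 3.62% higher and 3.29% lower). Dntt had 0.31, 0.78, 2.08 and 1.31 with Nur77, against -0.32, -0.41, 0.96 and 0.73 in MSCV_B. It rose 1.84-fold (0.88, SE 0.17, limma adjusted p = 0.0120). The groups overlapped. In both, the arrays with the tested RNA in Cy3 were higher (means of 1.70 and 0.84) than those with it in Cy5 (0.54 and -0.37). The call ended without a dye term (limma adjusted p = 0.546).

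Lef1 had 0.04, -0.84, -0.76 and -0.16 with Nur77, against 0.43, -0.04, 0.53 and 0.88 in MSCV_B, with an overlap. It fell by 0.88 (SE 0.23, 1.84-fold, limma adjusted p = 0.0428), but this held in only 2 of the 8 fits without 1 array (without Nur77 replicate 1 or MSCV_B replicate 2), and over the pooled empty-virus sets it was -0.29 (limma adjusted p = 0.680). Arpp21 probe 2 fell by 0.55 (SE 0.14, 1.46-fold, limma adjusted p = 0.0353), a call that ended without any 1 of Nur77 replicates 1 to 3 or MSCV_B replicates 1 to 3. With the pooled 16 arrays as control Arpp21 probe 1 (-0.71, limma adjusted p = 0.000838) and Aqp11 (-0.99, limma adjusted p = 0.00798) fell, which over MSCV_B alone were -0.44 and -0.47 and not called. Rag1 (-0.04), Rag2 (-0.0013) and Cd24a (-0.17) were not called. Of 13 regulators of Rag transcription 2 rose with Nur77, Foxo1 (1.20) and Id3 (1.07), and 3 fell, among them Foxp1 (-1.57) and Runx1 (-1.13), and 0 of 10 recombination genes were called by limma (0 at an unadjusted p under 0.05).

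MEF2D-VP16 raised Bcl6 less. Bcl6 had 1.97, 1.49, 1.02 and 1.22 with MEF2D-VP16, above every MSCV_B array, and rose 2.25-fold (1.17, SE 0.19, limma adjusted p = 0.00388). The Bcl6 call held without any 1 array but ended with all 11 groups in 1 fit, where limma called 0 of the 9 probes. Lef1 had -0.01, 0.01, -0.71 and -0.66, of which the first and second lay above the lowest MSCV_B array, and fell by 0.79 (SE 0.22, limma adjusted p = 0.0458). Leaving out any 1 of MEF2D-VP16 replicates 2 to 4 or MSCV_B replicates 1, 3 and 4 ended this call, and over the pooled empty-virus sets Lef1 stood at -0.20. These were the 2 of 9 probes called (12.6% of all probes). Dntt was above 0 on 4 of 4 arrays (0.43, 0.90, 0.58 and 0.79) and not called over MSCV_B (0.44, limma adjusted p = 0.171), but called over the pooled sets (0.69, limma adjusted p = 0.00821). Set directly against Nur77, MEF2D-VP16 had lower Bcl6 (means of 1.43 with MEF2D-VP16 and 3.27 with Nur77, difference -1.84, SE 0.27, limma adjusted p = 0.00200) and higher Aqp11 (-0.37 and -1.05, difference 0.68, SE 0.15, limma adjusted p = 0.0152), the 2 of 9 probes called there (13% of all probes).

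Of the empty-virus sets, only MSCV_B had members called over untreated cells. In MSCV_A 0 of 9 probes were called over untreated cells by limma (1.97% of all probes; 2 of 9 at an unadjusted p under 0.05), with Lef1 the farthest from 0 (-0.34, limma adjusted p = 0.114). In MSCV_B 3 of 9 were called (5.72% of all probes). Lef1 rose there (0.45, limma adjusted p = 0.0472), and Aqp11 (-0.58, limma adjusted p = 0.00934) and Arpp21 probe 1 (-0.38, limma adjusted p = 0.0291) fell. Lef1 and Aqp11 had the opposite sign in MSCV_A (-0.34 and 0.11). The Arpp21 call ended without any 1 of the 4 arrays, that of Lef1 without replicate 1, 3 or 4 and that of Aqp11 without replicate 3, and 0 of the 3 were called without a dye term. Over untreated cells Lef1 was not called with Nur77 (-0.43) or MEF2D-VP16 (-0.34).

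Rag1 and Cd24a depended on the dye with HDAC7-VP16 (limma adjusted p of the dye term 0.000119 and 0.000176). In MSCV_A their dye terms were not called (limma adjusted p = 0.118 and 0.0995). Rag1 was above 0 on 5 of 5 HDAC7-VP16 arrays with the tested RNA in Cy5 (mean 1.39) and below 0 on 5 of 5 with it in Cy3 (-0.94), and MSCV_A averaged 0.83 and -0.74. Cd24a averaged 2.18 in Cy5 and -1.97 in Cy3 with HDAC7-VP16, against 0.91 and -0.78 in MSCV_A. The fitted dye terms of HDAC7-VP16 and MSCV_A were 1.17 and 0.78 for Rag1 and 2.07 and 0.85 for Cd24a, of a size that 97.7% to 99.7% of all probes did not reach. They were smaller in the other hybridoma groups, down to -0.02 for Rag1 with MEF2D-VP16 and 0.04 for Cd24a with Nur77. Under PMA and ionomycin the Rag1 dye term was still called, with the empty virus (0.30, limma adjusted p = 0.0366) and with HDAC7 DP (0.56, limma adjusted p = 0.0326). That of Cd24a was 0.66 and 0.72 in these groups and not called (limma adjusted p = 0.0726 and 0.0953). Other members also had called dye terms, among them Dntt with HDAC7-VP16 (-0.30, limma adjusted p = 0.00313). In MSCV_B they were called for Dntt (-0.61, limma adjusted p = 0.00266) and Aqp11 (0.37, limma adjusted p = 0.0172). Each group holds both orientations equally, so a dye effect cancels in its mean. The difference of HDAC7-VP16 from MSCV_A was 0.18 for Rag1 (95% interval -0.55 to 0.91) and 0.04 for Cd24a (95% interval -0.91 to 0.997), wide intervals that hold differences of either sign.

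**Figure D5:**
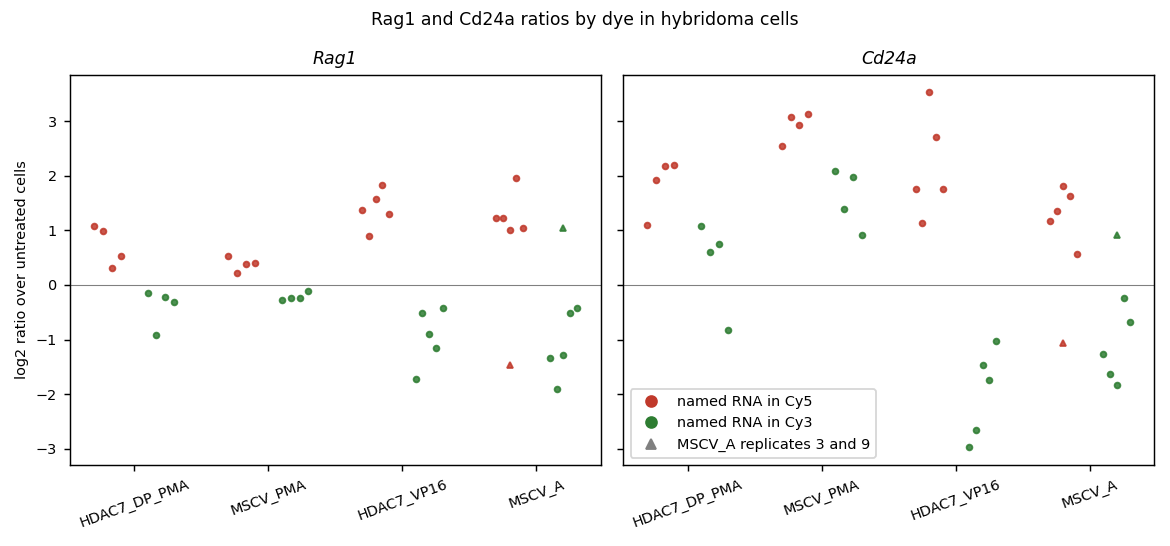
Log2 ratio over untreated cells of Rag1 and Cd24a on hybridoma arrays of 4 groups, split by the dye of the tested RNA; triangles mark MSCV_A replicates 3 and 9. With HDAC7-VP16 Rag1 averages 1.39 in Cy5 and -0.94 in Cy3.

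Across the 11 group means the 8 genes fell into different patterns, given here as a description over points that share control RNA. The range of group means was 6.55 for Bcl6, 4.22 for Lef1 and 3.85 for Aqp11, wider than in at least 99.6% of all probes, and 1.47 for Arpp21 probe 2, wider than in 88.7%. With the mhc -/- ratios as deposited, since their direction is not stated, these ranges are 5.41, 3.46, 3.11 and 1.32, and the first 3 are wider than in at least 98.1% of probes. Rag1 and Rag2 were both highest in mhc -/- thymocytes (0.50 and 1.14) and lowest at 3 h after peptide (-1.17 and -0.71), with r = 0.837 (0.823 with the mhc -/- ratios as deposited, where Rag2 is lowest in mhc -/- thymocytes and neither gene is highest there). Arpp21 probe 1 and Aqp11 were both highest in mhc -/- thymocytes and lowest with Nur77, with r = 0.951, while as deposited mhc -/- thymocytes are lowest for both and r = 0.827. The Arpp21 probes correlated at 0.576 (0.329 as deposited), Lef1 and Bcl6 at 0.692 (0.610), and Bcl6 and Arpp21 probe 1 at -0.646 (-0.476). For Rag1 the means of the 7 hybridoma groups lay between 0.05 and 0.32, with SDs from 0.11 to 1.34 within a group, and for Rag2 between -0.03 and 0.11, with SDs from 0.08 to 0.30, so that the order of these groups is not resolved.

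By correlation over the 11 group means, the genes most like Rag1 were Nsg2 (0.960), Chl1 (0.957) and the coreceptor gene Cd8b1 (0.951), and those most like Rag2 were Cbfa2t3 (0.965), the receptor gene Notch3 (0.962) and Hpgd (0.949). Dntt had no neighbour above 0.892 (Abhd15). Bcl6 was most like Tnfaip1 (0.977), Fbrsl1 (0.959) and Ebp (0.945), and Lef1 most like M6pr (0.950), Mapk6 (0.942) and Rassf5 (0.941). Arpp21 probe 1 was most like Adamdec1 (0.970) and probe 2 most like Slc43a1 (0.948). Aqp11 was most like Tbl2 (0.978), and Cd24a most like the cytokine gene Il13 (0.987), the chemokine gene Ccl1 (0.968) and Klf10 (0.965), with stimulated cells highest. With the mhc -/- ratios as deposited the same pairs gave r between 0.833 and 0.975. With 11 points and neighbours picked from 13409 genes, high correlations arise readily, and nothing is drawn from them about shared function.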

How the data were processed

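Total RNA was labelled with Cy3 or Cy5 through aminoallyl-dUTP in first-strand cDNA, per the labels' protocols. The deposited value table holds log2 ratios of 16463 probes on 74 arrays, with 0 missing values and array medians from -0.021 to 0.023. The scanner, background correction, normalization, log base (taken as 2) and direction chosen by the authors were not given in the sources used here. Dye orientation was taken from the titles, because the label fields give Cy3 on both channels. Precision is limited by the number of arrays, since signal intensities were not used.

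Each array was centred on its median. Probes were named through the platform annotation and RefSeq: 14551 had 1 symbol, 6 several and 1906 none, and 14272 matched RefSeq. For every probe limma 3.58.1 (R 4.3.3, lmFit and eBayes) was fitted to the groups compared with a term for dye. Ratios over untreated, uninjected or DO11.10 RNA were tested against 0. In 15 comparisons and an F test over the peptide times, calls were made at an adjusted p (Benjamini-Hochberg, over all 16463 probes) under 0.05. Intervals of 95% come from the moderated t distribution. The fit was tested on simulated data. The mhc -/- and peptide groups have the same kind of control, uninjected DO11.10 thymocytes; the hybridoma groups have untreated cells as theirs, and comparisons over MSCV_A, and those over MSCV_B, share those arrays.

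The members and gene lists were chosen with earlier results of these data known. Named are all members, up to 3 called genes of each list by size of change (a few further list genes were named after their values were seen), the 3 probes with the most similar group means and the genes that set the direction. A gene with several probes in a list is given by the first. Tables were handled with Python 3.11.15, pandas 2.3.3, numpy 2.4.6 and matplotlib 3.10.9.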

Additional observations from a re-analysis of the deposited data

Results flagged for a closer look

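Of 90 combinations of a probe and a group of 4 to 10 arrays, 4 held an array far from the rest, and chance gives about 1 in 20. Rag2 on HDAC7 DP replicate 7 was the lowest of 8 arrays (-0.396). Dntt on replicate 1 at 6 h after peptide was the lowest of 6 (-0.715), an array of the first slide set. Arpp21 probe 1 on stimulated empty-virus replicate 4 was the highest of 8 (0.051). Cd24a on MEF2D-VP16 replicate 1 was the highest of 4 (1.276).

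Between the peptide times, between HDAC7 DP and the stimulated empty virus, and between MEF2D-VP16 and Nur77, 5 differences were called by limma. Calls over the unstimulated empty virus are given above and are not among them. HDAC7 DP differed from the empty virus under PMA and ionomycin for Lef1 (-2.07, with all 8 HDAC7 DP arrays below the lowest empty-virus array) and for Cd24a (-1.13). Thymocytes at 12 h differed from those at 3 h for Bcl6 (-1.88), with the 4 arrays of the second slide set far below the other 2 at 12 h. MEF2D-VP16 differed from Nur77 for Bcl6 (-1.84) and Aqp11 (0.68), on 4 arrays each.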

How the results depend on the processing

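Counts here are of the 9 probes called by limma, with counts over all 16463 probes where these moved by over 1.5 times. As reported the counts were HDAC7-VP16 2 (447), stimulated empty virus 4 (2057), HDAC7 DP 2 (271), MEF2D-VP16 2, Nur77 4 (1138), MSCV_A 0 (325), MSCV_B 3 (942), mhc -/- 8, peptide 3 (446), 4 (753) and 1 (557) at 3 h, 6 h and 12 h, 0 (2) for 6 h over 3 h, 0 (523) for 12 h over 6 h, 1 (802) for 12 h over 3 h, 2 for MEF2D-VP16 over Nur77 and 0 (674) in the F test. The cause of a change was not tested. Without a dye term, HDAC7-VP16 (284), HDAC7 DP, MEF2D-VP16, Nur77 (365) and MEF2D-VP16 over Nur77 had 1 each, and MSCV_B (20) and 12 h over 3 h had 0. Without centring, 12 h had 2 and 12 h over 3 h had 0. With quantile normalization HDAC7 DP had 1, 12 h over 3 h had 0 (413), and the all-probe counts were 250 for 12 h over 6 h and 38 for 6 h over 3 h. With all 11 groups in 1 fit, HDAC7 DP had 1 (411), MEF2D-VP16 0, MSCV_B 1 (427), 3 h 5 (735), 12 h 6 (3011), 12 h over 6 h 2 (1044) and 12 h over 3 h 2, and the all-probe counts were 652 for Nur77 and 37 for 6 h over 3 h.

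Series 14 alone gave HDAC7-VP16 0 (7), the stimulated empty virus 2 (781) and MSCV_A 41 of all probes. Series 15 alone gave HDAC7 DP 0 (27), MSCV_A 1 (189), and 703 and 745 of all probes for HDAC7-VP16 and the stimulated empty virus. Averaging arrays of the same slide number gave MSCV_A 1 and 101 of all probes for HDAC7 DP, and averaging consecutive dye-swapped slides gave HDAC7 DP 0 (0). For HDAC7-VP16 the count was 1 with the sign of MSCV_A replicates 3 and 9 turned, without the array of unclear source, with the pooled 16 empty-virus arrays (238) and against untreated cells. That turn left MSCV_A 0 of all probes called, and exchanging the dyes of these 2 arrays, chosen after seeing the data, gave it 1 (623). Against untreated cells the sign turned for Bcl6 (2.46) and Cd24a (1.12) with HDAC7 DP and for Aqp11 (-0.37) with MEF2D-VP16, and the all-probe counts were 3234 for HDAC7 DP and 2167 for Nur77.

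With slide series as a block, 6 h had 7 (1393), 12 h 7 (2530), 12 h over 6 h 2 (1246), 12 h over 3 h 0 and the F test 2 (1421), with 118 of all probes for 6 h over 3 h. Slides without a series prefix alone gave 12 h 6 (4067), 12 h over 6 h 4 (2749) and 1906 of all probes at 6 h. Chosen after seeing the data, slide set as a block gave 2 for 12 h over 6 h (1251), 12 h over 3 h (1469) and the F test (1463), and 20 of all probes for 6 h over 3 h. The second slide set alone gave 1 for 6 h over 3 h (590), 4 for 12 h over 6 h (2733) and 3 for 12 h over 3 h (2756), and without replicates 1 and 2 the all-probe count at 3 h was 1447.

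Leaving out 1 array at a time gave 1 to 2 for MEF2D-VP16, 2 to 4 for Nur77 (677 to 1255), 2 to 3 for MEF2D-VP16 over Nur77, 0 to 2 for MSCV_B (347 to 448), 7 to 9 for mhc -/-, 2 to 3 at 3 h (100 to 654), 1 to 5 at 6 h (279 to 996), 0 to 3 at 12 h (46 to 1832), 0 for 6 h over 3 h, 0 to 4 for 12 h over 6 h (123 to 1513), 0 to 3 for 12 h over 3 h (460 to 1639) and 0 to 3 in the F test (271 to 1615). Over the other alternatives, 906 of 1017 values of single probes kept their side of the threshold (843 with the same sign, 63 with the other sign and called in neither fit), 60 became called, 48 lost their call and 3 turned with a call in either fit. With the mhc -/- ratios left as deposited, chosen after seeing the data, every mhc -/- value changes sign. No paired analysis was possible because the titles give slide numbers and no replicate numbers, so that the numbers used here only name arrays.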
